A study of Mus musculus with 14 samples.

Results

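The 35 genes described here encode the machinery that takes a cell from G2 through mitosis: the mitotic cyclins and their kinase, the mitotic kinases, the spindle checkpoint, the chromosomal passenger complex, outer kinetochore proteins, mitotic kinesins, spindle-binding proteins, cytokinesis factors, and the chromosome proteins Top2a and Mki67. They were picked by name, from their known functions, out of 24984 genes in each of 2 count tables. Earlier results of these data were known when they were picked. All 35 were counted in all 14 libraries, with between 1141 and 21723 reads a library in one table and between 210 and 57366 in the other. All 35 passed the filter on low counts in both tables.

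The libraries came from cKIT(+) spermatogonia sorted by FACS from testes of C57BL/6J mice. In the deletion experiment, 2 deleted libraries came from Rosa26-CreERT2; Cbx2[Flox/Δ] mice given tamoxifen (3 intraperitoneal injections of 200 µL at 20 mg/mL), and 2 controls came from Rosa26-CreERT2; Cbx2[Flox/+] mice given corn oil. All 4 carry the Cre, which is driven from a locus active in most cell types and not only in germ cells, and genotype and injection differ together, so they cannot be told apart. In the second experiment, 5 libraries came from mice homozygous for 23KRA (Cbx2[23KRA/23KRA]), in which lysines and arginines of the CaPS domain of CBX2 are changed to alanine, and 5 from wild-type mice (Cbx2[+/+]), with no injection. The questions were what changes in these cells when Cbx2 is deleted and when CBX2 carries these substitutions. The labels give no age.

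In background terms, a dividing cell builds up cyclin B with the kinase CDK1 during G2, and their activity starts mitosis. Kinetochores then attach chromosomes to spindle microtubules, the spindle checkpoint holds back the anaphase-promoting complex until attachment is complete, and the passenger complex and midzone kinesins direct the cleavage furrow. Differentiating spermatogonia, marked by the receptor KIT, divide by mitosis several times before entering meiosis. Many are transcribed late in the cell cycle through the DREAM and B-MYB-FOXM1 complexes, which act at promoters with a CHR element, often beside CCAAT boxes bound by NF-Y. CBX2 is a chromobox subunit of a Polycomb repressive complex.

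The sequences of 4 members are shown because they hold the shared promoter letters in different arrangements. Bub1 has CCAAT alone. Top2a and Kif11 have both near the start, Top2a with further matches of both upstream, and Mki67 has both further upstream only. They run from 150 to 11 bases before the RefSeq start (build GRCm38.p6), 140 bases each, written 5′ to 3′ on the gene's strand. Capitals mark TTTGAA, the core letters of the CHR element, or CCAAT, either of them on either strand (TTCAAA and ATTGG on the other strand).
Bub1 (chr2:127831870-127832009, minus strand): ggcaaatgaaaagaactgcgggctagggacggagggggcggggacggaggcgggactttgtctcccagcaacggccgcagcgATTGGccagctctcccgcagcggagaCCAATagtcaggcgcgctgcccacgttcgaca
Top2a (chr11:99024200-99024339, minus strand): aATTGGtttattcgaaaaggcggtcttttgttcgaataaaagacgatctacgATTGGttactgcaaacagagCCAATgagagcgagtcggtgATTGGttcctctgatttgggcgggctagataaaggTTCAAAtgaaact
Kif11 (chr19:37376232-37376371, plus strand): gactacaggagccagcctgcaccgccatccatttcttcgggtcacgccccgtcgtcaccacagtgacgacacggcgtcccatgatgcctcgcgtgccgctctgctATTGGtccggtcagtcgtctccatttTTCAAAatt
Mki67 (chr7:135716390-135716529, minus strand): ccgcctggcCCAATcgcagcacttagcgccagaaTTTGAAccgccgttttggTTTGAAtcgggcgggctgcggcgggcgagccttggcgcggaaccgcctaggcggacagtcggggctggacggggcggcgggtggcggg

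RefSeq promoters of 300 bases (250 before and 50 after the start) matched 29 of the 35 members by symbol. TTTGAA, on either strand, stood in 22 of these 29 (75.86%), against 20.23% of all 27025 genes with a promoter of that length. CCAAT stood in 21 (72.41%), against 41.06%, and both stood in 18 (62.07%), against 7.97%. Bub1 and Ccnb1 each held 2 CCAAT matches and no TTTGAA in this window. Nuf2, Nusap1, Mad2l1 and Birc5 held neither. A match is a description of letters and not of a bound site. The letters, the printed window and the printed members were chosen after the fold changes were seen.

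Cbx2 itself, the targeted gene, read 95.8 ± 2.67 CPM (counts scaled to each library's TMM-adjusted total, SD, n = 2) in controls and 82.5 ± 5.66 CPM in deleted libraries. It read 73.0 ± 12.6 CPM in wild type and 64.1 ± 17.4 CPM in 23KRA (SD, n = 5). By library, in replicate order as everywhere here, the values were 93.9 and 97.7 CPM for controls and 78.5 and 86.5 CPM for deleted, and 81, 79.2, 83.6, 53.2 and 68 CPM for wild type and 89.7, 57.9, 73.9, 48.8 and 50.3 CPM for 23KRA. Reads counted over the whole gene do not show how much of the floxed part was lost, and the 23KRA substitutions change the protein, so these levels do not check the labels. The sorted cells held the transcripts of differentiating spermatogonia: Kit, the sorted marker, read 231 CPM in controls and 242 CPM in deleted libraries, 254 CPM in wild type and 258 CPM in 23KRA, and Stra8 536, 564, 726 and 666 CPM in the same order. The 10 markers listed for differentiating spermatogonia summed to 2329 CPM in controls and 2366 CPM in wild type, as means. For undifferentiated spermatogonia 14 markers summed to 715 and 516 CPM, for meiotic prophase 16 markers to 5995 and 3653 CPM, and for spermatids 12 markers to 4094 and 912 CPM. Transcripts of other stages were thus present too. Library totals were 28169990 to 31166500 counts in the deletion table and 14562564 to 19814511 in the 23KRA table. The labels number the replicates but do not say whether each is 1 animal, so p-values measure only the spread between these samples.

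After Cbx2 deletion, none of the 35 members passed an adjusted p of 0.05 (edgeR quasi-likelihood test, Benjamini-Hochberg over 16725 genes; smallest adjusted p of a member 0.971), beside 0.012% of all genes tested, which is 2 genes, Dcn and Cyp17a1. An unadjusted p under 0.05 was reached by 3 members, Bub1, Ccnb1 and Kif20a, all higher in the deleted libraries, beside 4.74% of all genes. DESeq2 and limma-voom also called 0 of the 35. The fitted log2 fold change was above 0 for 30 members and below 0 for 5, beside 49% of all genes above 0. Their median was 0.071, against -0.0044 over all genes tested and 0.012 over the 5973 genes in the same range of levels, of which 54.4% were above 0. Members ran from -0.16 to 0.35, that is, from 89.6% to 128% of the control mean.

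**Figure D1:**
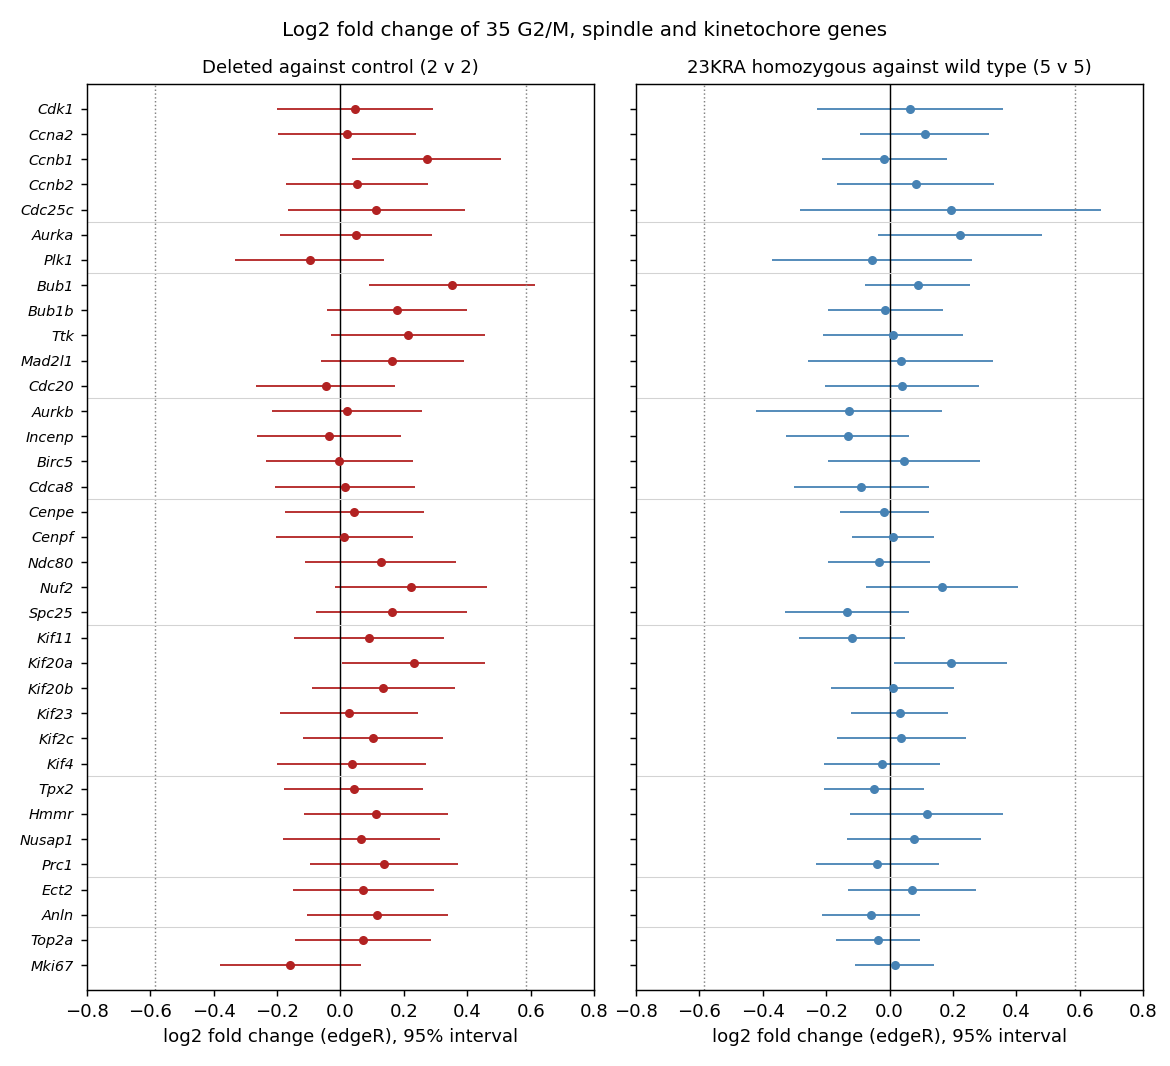
Fitted log2 fold change (x axis) of each of the 35 members (y axis) with its 95% interval, in the deletion and in the 23KRA comparison, grouped by role. Dotted lines mark a 1.5-fold change. In the deletion 32 of 35 intervals include 0, and in 23KRA 34 of 35 do.

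These intervals bound what the depth and replication could show. In the deletion, 34 of 35 intervals lay inside a 1.5-fold change in either direction and all 35 inside 2-fold, so a change of 2-fold or more lay outside the interval of every member. The 2 libraries a group are few, and 22 of the 35 differences between group means were smaller than the difference between the 2 controls. The share of all genes with such a difference was not computed, so this count shows nothing particular to the members.

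The libraries differed in the members as a whole. Their summed level was 7398 CPM in control 1, 6754 CPM in control 2, 7785 CPM in deleted 1 and 7321 CPM in deleted 2, so deleted 1 was the highest and control 2 the lowest, and the groups overlapped at control 1 and deleted 2. The deleted mean (7553 ± 328 CPM, SD, n = 2) was 106.74% of the control mean (7076 ± 456 CPM, SD, n = 2), a log2 ratio of 0.094. That ratio was 0.030 without control 2, 0.053 without deleted 1 and 0.172 without control 1. The 2 controls differed from each other by 0.131 on the log2 scale and the 2 deleted libraries by 0.0886. Control 1 was above control 2 in 29 members, and deleted 1 above deleted 2 in 30. Both deleted libraries exceeded control 2 in 24 members and control 1 in 12. For these counts between single libraries the shares of all genes were not computed. Without control 2 the count above 0 fell to 24 of 35, with a median of 0.028, and without deleted 1 to 22, with a median of 0.020. It was 29 and the median 0.129 without control 1, and 31 and 0.147 without deleted 2. The difference between the 2 controls was thus larger than that between the group means.

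**Figure D2:**
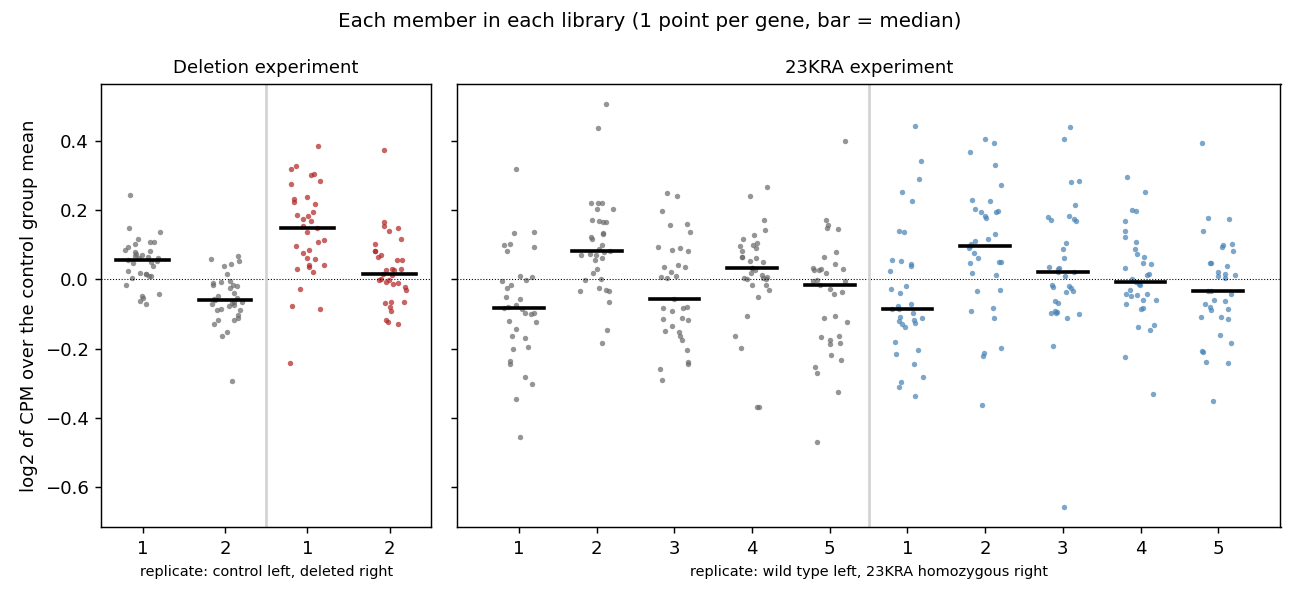
Each member's level in each library relative to its mean over the control group (log2, y axis), by library (x axis), with the median of the 35 members marked. In the deletion table control 2 sits lowest and deleted 1 highest, as in the summed levels of 6754 and 7785 CPM.

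Groups that did not overlap were found for 12 members. In 10, both deleted libraries were above both controls (15.6% of all genes): Ccnb1, Bub1, Bub1b, Mad2l1, Nuf2, Kif20a, Kif2c, Hmmr, Anln and Top2a. In 2, Plk1 and Mki67, both were below (17.5% of all genes).

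Among the cyclins and their kinase, Ccnb1, cyclin B1 (chr13:100778650-100786570, GRCm38), read 240.4 and 205 CPM in the 2 control libraries and 291 and 247 CPM in the deleted libraries (log2 fold change 0.27, SE 0.114, 95% interval 0.04 to 0.51, unadjusted p = 0.025). Both deleted libraries were above both controls, with deleted 2 close to control 1. The log2 fold change was 0.16 without control 2 and 0.15 without deleted 1. The most abundant of the group, Ccna2 (cyclin A2, which acts in S phase and G2), read 264 and 247 CPM in the 2 control libraries and 264 and 256 CPM in the deleted libraries, and the groups overlapped. Cdk1, the kinase both cyclins bind, read 84.4 ± 2.07 against 87.1 ± 11.2 CPM (control against deleted, SD, n = 2), Ccnb2 (cyclin B2) 145 ± 2.20 against 150.1 ± 8.50 CPM, and Cdc25c, the phosphatase that activates CDK1, 41.8 ± 2.37 against 45.2 ± 7.60 CPM. None of these 3 passed the test.

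The mitotic kinases did not pass the test. Aurka, Aurora A, which acts at spindle poles, read 94.9 and 92.3 CPM in the 2 control libraries and 104 and 89.3 CPM in the deleted libraries, and deleted 2 was the lowest library while deleted 1 was the highest. Plk1, Polo-like kinase 1 (chr7:122159439-122169873), read 85.5 and 91.1 CPM in the 2 control libraries and 83.7 and 81.5 CPM in the deleted libraries (log2 fold change -0.10, SE 0.115, 95% interval -0.33 to 0.14, unadjusted p = 0.404), and the log2 fold change was -0.05 without control 2.

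The spindle checkpoint group held the highest log2 fold change of the 35. Bub1, a checkpoint kinase at kinetochores (chr2:127801122-127831865), read 494 and 341 CPM in the 2 control libraries and 525 and 541 CPM in the deleted libraries (log2 fold change 0.35, SE 0.127, 95% interval 0.09 to 0.61, unadjusted p = 0.010). Both deleted libraries and control 1 were close together, and control 2 stood apart from all 3, so the size of the difference turns on that library: it was 0.11 without control 2 and 0.66 without control 1. The other checkpoint genes were Bub1b, which encodes BUBR1 (166 ± 8.46 against 188 ± 1.90 CPM), Ttk, the kinase MPS1 (129 ± 19.7 against 149.7 ± 10.6 CPM), and Mad2l1, which encodes MAD2 (152 ± 9.47 against 170.1 ± 10.02 CPM). Cdc20, the activator of the anaphase-promoting complex that the checkpoint inhibits (chr4:118432901-118437352), read 213 and 229 CPM in the 2 control libraries and 217 and 211 CPM in the deleted libraries (log2 fold change -0.05, SE 0.106, 95% interval -0.27 to 0.17, unadjusted p = 0.662). The groups overlapped, and its direction turned without control 2 (0.0082).

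The chromosomal passenger complex had the narrowest range of the role groups with over 2 members. Cdca8, the subunit borealin, read 185 and 196 CPM in the 2 control libraries and 198 and 187 CPM in the deleted libraries, with the groups overlapping. Aurkb, the Aurora B kinase of the complex, read 86.8 ± 5.21 against 88.01 ± 3.60 CPM, its scaffold Incenp 141 ± 9.69 against 138 ± 6.79 CPM, and Birc5, survivin, 144 ± 1.24 against 144 ± 17.1 CPM. The 4 log2 fold changes lay between -0.04 and 0.02.

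At the kinetochore, Cenpf, a large coiled-coil protein of the outer kinetochore, read 560.1 and 511 CPM in the 2 control libraries and 549 and 532 CPM in the deleted libraries. Control 1 was the highest library and control 2 the lowest. Cenpe, the kinetochore motor that moves chromosomes to the equator, read 233 ± 15.6 against 240.5 ± 3.01 CPM. The NDC80 complex, which binds microtubules, was measured through Ndc80 (130.3 ± 14.4 against 142 ± 12.98 CPM), Nuf2 (114 ± 12.02 against 133 ± 13.03 CPM) and Spc25 (235 ± 19.9 against 263 ± 39.2 CPM). All 5 log2 fold changes were above 0, from 0.01 to 0.22, and none passed the test.

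Of the kinesins, Kif20a (MKLP2, a motor of the central spindle) read 228 and 203 CPM in the 2 control libraries and 266 and 239.9 CPM in the deleted libraries (log2 fold change 0.23, SE 0.109, 95% interval 0.01 to 0.46, unadjusted p = 0.045), with a log2 fold change of 0.15 without control 2. Of its exon bases, 31.78% overlap exons of Cdc23 on the opposite strand, and the strand setting of the counting is not given in the sources used here. Cdc23 read 91.7 ± 0.187 CPM in controls and 95.7 ± 1.59 CPM in deleted libraries. Kif23 (MKLP1, the motor of the centralspindlin complex), the most abundant kinesin, read 289 and 267 CPM in the 2 control libraries and 282 and 284 CPM in the deleted libraries, with deleted values between the 2 controls. Kif11 (Eg5, which pushes spindle poles apart) read 229 ± 32.5 against 244 ± 20.9 CPM, Kif2c (MCAK, which takes microtubules apart at centromeres) 237 ± 3.45 against 254 ± 20.9 CPM, Kif20b 168 ± 12.3 against 185 ± 11.5 CPM, and the chromokinesin Kif4 93.6 ± 6.64 against 95.9 ± 0.599 CPM.

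Among spindle-binding proteins, Prc1, which bundles midzone microtubules, read 264 and 223 CPM in the 2 control libraries and 288 and 248 CPM in the deleted libraries, and the groups overlapped. Exons of Rccd1 on the opposite strand cover 21.84% of its exon bases. Tpx2, the activator of Aurora A on the spindle, read 233 ± 8.80 against 239.6 ± 13.1 CPM, Hmmr 108 ± 1.82 against 117 ± 3.11 CPM and Nusap1 148 ± 12.5 against 155 ± 27.04 CPM. In cytokinesis, Ect2, the exchange factor that activates RhoA at the furrow, read 244 and 213 CPM in the 2 control libraries and 242 and 237 CPM in the deleted libraries. Anln, the furrow scaffold anillin, read 142 ± 1.36 against 154 ± 4.83 CPM.

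Top2a, topoisomerase II alpha, which untangles sister chromatids, was the most abundant member in this table and read 753 and 690.3 CPM in the 2 control libraries and 761 and 755 CPM in the deleted libraries. The lower deleted library was just above the higher control. Mki67, which encodes the proliferation antigen Ki-67 (chr7:135689784-135716361), had the lowest log2 fold change, at 202 and 201 CPM in the 2 control libraries and 170.01 and 190.4 CPM in the deleted libraries (log2 fold change -0.16, SE 0.108, 95% interval -0.38 to 0.06, unadjusted p = 0.156). Its 2 controls were close together and both deleted libraries were below them, with deleted 1 the lower. The log2 fold change was -0.08 without deleted 1 and -0.24 without deleted 2.

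**Figure D3:**
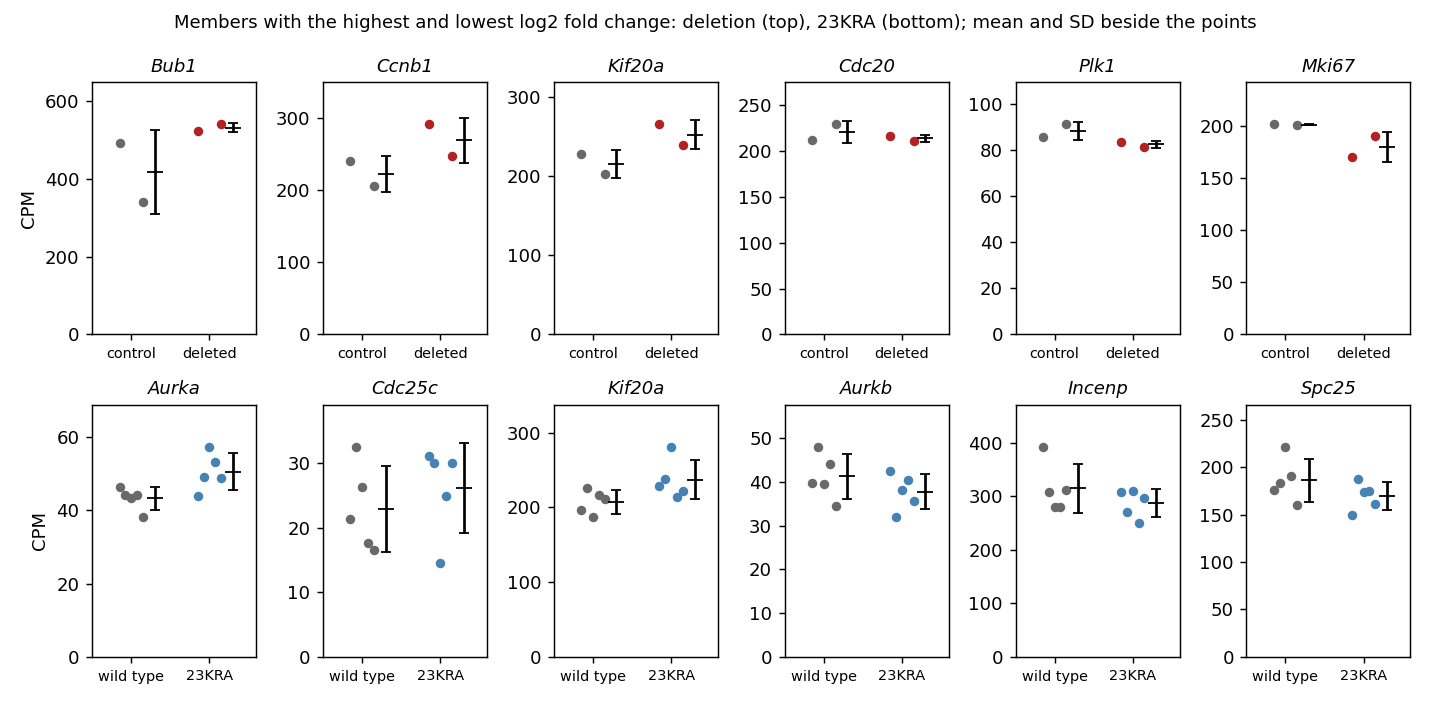
CPM (y axis, from 0) in every library for the 3 members of highest and the 3 of lowest log2 fold change in the deletion (top) and in 23KRA (bottom), with the mean and SD of each group. For Bub1, control 2 (341 CPM) stands below the other 3 libraries, which lie between 494 and 541 CPM.

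In 23KRA, none of the 35 members passed an adjusted p of 0.05 (edgeR quasi-likelihood test, Benjamini-Hochberg over 14208 genes; smallest adjusted p of a member 1.00), beside 0% of all genes, and 1 member, Kif20a, had an unadjusted p under 0.05, beside 3.04%, or 432 genes. DESeq2 and limma-voom also called 0 genes in all. The log2 fold change was above 0 for 20 members and below 0 for 15, beside 50.8% of all genes above 0, with a median of 0.012 (0.0034 over all genes). Values ran from -0.13 to 0.22, from 91.2% to 117% of the wild-type mean. No member had groups that did not overlap, with 23KRA above (0.436% of all genes) or below (0.274%). The 95% interval lay inside 1.5-fold for 34 members, all but Cdc25c, and inside 2-fold for all 35. Without wild type 2 and wild type 3, in which the fewest genes were detected, 21 of 35 were above 0.

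The summed level was 12361, 13465, 12522, 12898 and 12218 CPM in wild type 1 to 5 and 11971, 13946, 12835, 12546 and 12259 CPM in 23KRA 1 to 5. The groups overlapped: 3 of the 5 values in 23KRA lay inside the wild-type range, 23KRA 1 was below it and 23KRA 2 above it. The 23KRA mean was 100.15% of wild type. The difference of means was below the wild-type SD in 33 of 35 members, and the share of all genes was not computed. The median coefficient of variation of the members was 9.36% in wild type, against 13.3% over genes in the same range of levels, and 10.1% against 11.7% in 23KRA. The order was not the same throughout the deletion table, with 6.14% against 5.15% in controls and 5.66% against 6.48% in deleted libraries.

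The highest log2 fold change belonged to Aurka (chr2:172356190-172370535), which read 46.5, 44.2, 43.5, 44.1 and 38.1 CPM in wild type and 44.1, 49.2, 57.4, 53.2 and 48.95 CPM in 23KRA (log2 fold change 0.22, SE 0.124, 95% interval -0.04 to 0.48, unadjusted p = 0.087). Of the 5 values in 23KRA, 4 were above every wild-type value. Kif20a read 196, 226, 187, 217 and 211 CPM in wild type and 229, 238, 281, 214 and 223 CPM in 23KRA (log2 fold change 0.19, SE 0.086, 95% interval 0.01 to 0.37, unadjusted p = 0.036), and 1 library, 23KRA 3, was well above the rest; without it the log2 fold change was 0.12. Cdc23, whose exons overlap those of Kif20a, read 55.5 ± 7.40 CPM in wild type and 52.7 ± 4.85 CPM in 23KRA. Kif20a also had an unadjusted p under 0.05 in the deletion, but 1 of 35 members in 23KRA is close to the 3.04% of all genes.

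Cdc25c, the least abundant member here, read 21.4, 32.5, 26.2, 17.7 and 16.5 CPM in wild type and 31.1, 30.1, 14.5, 24.9 and 30.04 CPM in 23KRA (log2 fold change 0.19, SE 0.228, 95% interval -0.28 to 0.67, unadjusted p = 0.405), and its values spread widely in both groups. Its log2 fold change ran from 0.10 without wild type 5 to 0.35 without wild type 2, and was 0.11 without wild type 4 or without 23KRA 1 and 0.34 without 23KRA 3. At the low end, Spc25 (chr2:69193895-69206194) read 176, 183, 222, 190.5 and 160.00 CPM in wild type and 150.04, 188, 174, 175 and 161 CPM in 23KRA (log2 fold change -0.13, SE 0.094, 95% interval -0.33 to 0.06, unadjusted p = 0.167), and without wild type 3 the log2 fold change was -0.06. Incenp (chr19:9872296-9899551), the most abundant passenger gene here, read 392, 308, 281, 280.3 and 311 CPM in wild type and 309, 271, 309, 249.8 and 296 CPM in 23KRA (log2 fold change -0.13, SE 0.093, 95% interval -0.33 to 0.06, unadjusted p = 0.172), with wild type 1 far above the others. Its log2 fold change was -0.04 without wild type 1 and -0.09 without 23KRA 4. Aurkb (chr11:69045647-69051664) read 39.8, 48.04, 39.6, 44.1 and 34.6 CPM in wild type and 42.4, 32.1, 38.2, 40.4 and 35.7 CPM in 23KRA (log2 fold change -0.13, SE 0.140, 95% interval -0.42 to 0.16, unadjusted p = 0.374), and the log2 fold change was -0.07 without wild type 2 and also -0.07 without 23KRA 2. In all 3 the groups overlapped.

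The most abundant members of the other roles showed the same overlap. Ccnb1 read 127, 163, 163, 141 and 135 CPM in wild type and 135, 137, 142, 164 and 142 CPM in 23KRA. Plk1 read 55.2, 52.1, 44.2, 40.4 and 68.8 CPM in wild type and 51.4, 44.7, 63.5, 47.1 and 44.1 CPM in 23KRA. Bub1, the highest in the deletion, read 239, 278, 271, 287 and 263 CPM in wild type and 247, 313, 279, 288 and 295 CPM in 23KRA.

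Of these 3, Bub1 was above the wild-type maximum in 3 of 5 libraries of 23KRA, and Ccnb1 and Plk1 in 1 and 0. Cenpf read 2889.7, 3111, 3118, 2945 and 2622 CPM in wild type and 2786, 3321, 2998, 2968 and 2724 CPM in 23KRA. Kif11 read 402, 457, 452, 442 and 381 CPM in wild type and 347, 450.3, 373, 414 and 382 CPM in 23KRA. Tpx2 read 389, 381, 315, 359 and 371 CPM in wild type and 354, 368, 357, 311 and 366 CPM in 23KRA.

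In these 3 the lowest library was a 23KRA one for Kif11 and Tpx2 and a wild-type one for Cenpf. Anln read 217, 231, 214, 226 and 253 CPM in wild type and 209, 224, 222, 222 and 219 CPM in 23KRA. Mki67, the second most abundant member in this table after Cenpf, read 2292, 2426, 2169, 2299.8 and 2292 CPM in wild type and 2099.5, 2628, 2333, 2231 and 2318 CPM in 23KRA, and 23KRA 2 was the highest library while 23KRA 1 was the lowest.

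The other members are given as wild-type against 23KRA means (SD, n = 5), and none passed the test. Among the cyclins and their kinase, Cdk1 read 43.2 ± 5.84 against 45.2 ± 6.15 CPM, Ccna2 137 ± 16.4 against 148 ± 13.7 CPM and Ccnb2 65.3 ± 8.58 against 69.1 ± 7.20 CPM. At the checkpoint, Bub1b read 229 ± 14.8 against 227 ± 27.7 CPM, Ttk 104 ± 13.7 against 105 ± 9.90 CPM, Mad2l1 62.1 ± 12.6 against 63.7 ± 8.002 CPM and Cdc20 70.1 ± 7.13 against 72.01 ± 9.60 CPM. Of the passenger complex, Birc5 read 71.9 ± 8.59 against 74.2 ± 8.52 CPM and Cdca8 104 ± 7.69 against 97.6 ± 11.9 CPM. At the kinetochore, Cenpe read 793 ± 57.9 against 783 ± 45.7 CPM, Ndc80 215 ± 16.3 against 209.97 ± 9.38 CPM and Nuf2 140.3 ± 26.1 against 157 ± 16.7 CPM. In each of these 12 genes the difference of means was below the larger of its 2 SDs. Among the kinesins, Kif20b read 414 ± 42.7 against 417 ± 57.1 CPM, Kif23 364 ± 18.8 against 373 ± 30.5 CPM, Kif2c 141 ± 8.13 against 145 ± 21.1 CPM and Kif4 164 ± 7.83 against 161 ± 17.3 CPM. Of the spindle, furrow and chromosome proteins, Hmmr read 163 ± 36.9 against 176 ± 8.34 CPM, Nusap1 124 ± 11.6 against 131 ± 17.5 CPM, Prc1 287 ± 41.9 against 279 ± 21.1 CPM, Ect2 165 ± 15.3 against 174 ± 23.04 CPM and Top2a 1304 ± 74.3 against 1272 ± 93.3 CPM. In these 9 as well, the difference of means was below the larger SD.

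Genes of other lists, chosen by function with earlier results of these data known, also gave no call. None of 32 other kinetochore genes, 21 other spindle and motor genes, 26 other mitotic regulators, 8 condensin subunits, 14 paralogues and germline genes, or 35 DNA replication genes passed an adjusted p of 0.05 (edgeR quasi-likelihood test, Benjamini-Hochberg over all genes) in either experiment. An unadjusted p under 0.05 was reached by 1, 1, 1, 0, 3 and 1 of them in the deletion, in that order, and by 2, 1, 2, 0, 0 and 1 in 23KRA. The shares of all genes tested were 4.74% in the deletion and 3.04% in 23KRA. In the deletion, log2 fold changes were above 0 for 22 of 32 kinetochore genes (median 0.039), 12 of 21 spindle genes (0.043), 10 of 26 regulators (-0.05), 5 of 8 condensins (0.059), 8 of 14 paralogues and germline genes (0.072) and 22 of 35 replication genes (0.056). In 23KRA they were above 0 for 21 (0.021), 7 (-0.04), 15 (0.063), 3 (-0.04), 7 (0.032) and 22 (0.023) of the same lists. Of all genes tested, 49% were above 0 in the deletion and 50.8% in 23KRA. Single libraries turned the sign of several medians. In the deletion the kinetochore median was -0.02 without deleted 1 and the regulator median 0.017 without control 2. In 23KRA the kinetochore median was -0.02 without wild type 1 or without 23KRA 2, the median of the paralogues and germline genes -0.03 without wild type 2, the regulator median -0.02 without 23KRA 3, and the condensin median 5.0e-05 without 23KRA 1.

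The most abundant of these genes in the deletion are given as control against deleted means (SD, n = 2). At the kinetochore, Zwint read 225 ± 13.7 against 259 ± 28.3 CPM and Cenpa, the centromeric histone, 210.2 ± 9.24 against 212 ± 30.3 CPM. On the spindle, Ckap5, a microtubule polymerase, read 311 ± 44.5 against 349.96 ± 11.4 CPM and Tacc3 261 ± 11.4 against 264 ± 17.3 CPM. Of the regulators, Pbk read 186 ± 14.4 against 200.4 ± 26.8 CPM and Trip13 174 ± 1.08 against 182 ± 9.02 CPM. The condensin subunits Smc4 and Smc2, which fold mitotic chromosomes, read 677 ± 22.1 against 668 ± 27.5 CPM and 314 ± 18.9 against 332 ± 34.6 CPM. Plk4, the kinase of centriole duplication, read 228 ± 18.8 against 248 ± 25.3 CPM. Among the replication genes, Slbp, which binds histone mRNA, read 574 ± 40.2 against 645 ± 84.1 CPM and Mcm6, a helicase subunit, 497 ± 17.7 against 529.9 ± 22.98 CPM.

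In 23KRA the most abundant are given as wild-type against 23KRA means (SD, n = 5). Knl1, the kinetochore scaffold of the checkpoint, read 347 ± 24.6 against 366 ± 45.6 CPM and Kntc1 159 ± 20.2 against 161 ± 9.82 CPM. Ckap5 read 609 ± 29.6 against 621 ± 19.99 CPM and Numa1, which tethers spindle poles, 608 ± 79.8 against 545 ± 42.1 CPM. Foxm1, a transcription factor of G2/M genes, read 191 ± 18.7 against 159 ± 15.7 CPM, with a log2 fold change of -0.27 that did not pass the test, and Espl1, separase, 157 ± 13.6 against 158 ± 10.6 CPM. Smc4 read 898 ± 59.4 against 884 ± 115 CPM and Smc2 479 ± 51.4 against 495 ± 48.3 CPM. Mns1 read 271 ± 33.1 against 245 ± 20.99 CPM and Top2b 239 ± 14.6 against 222 ± 20.7 CPM. Lig1, the replicative ligase, read 561 ± 75.9 against 543 ± 37.8 CPM and Pole, a replicative polymerase subunit, 531 ± 35.5 against 499.6 ± 28.00 CPM.

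Among the paralogues and germline genes, Ccnb3, cyclin B3, read 53.6 ± 0.671 CPM in controls and 70.5 ± 12.9 CPM in deleted libraries (log2 fold change 0.39, SE 0.131, unadjusted p = 0.00562). Kif2b, a relative of Kif2c, read 174 ± 14.7 and 148 ± 12.3 CPM (log2 fold change -0.24, unadjusted p = 0.0435), and Kif2a, another, 83.1 ± 6.37 and 69.3 ± 0.801 CPM (-0.26, unadjusted p = 0.0359). These 3 of 14 are named because they passed 0.05 unadjusted, beside 4.74% of all genes. Their adjusted p was 0.971 in each case (edgeR quasi-likelihood test). In 23KRA the log2 fold changes of Ccnb3, Kif2b and Kif2a were 0.09, -0.19 and -0.13, with SEs of 0.125, 0.337 and 0.083. Their unadjusted p there was 0.489, 0.587 and 0.136 (edgeR quasi-likelihood test), so none passed 0.05.

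Markers of other cell types differed between libraries. The 12 spermatid markers were below 0 in all 12 in the deletion (median -0.20), with summed levels of 3927 and 4261 CPM in control 1 and 2, and 3353 and 3866 CPM in deleted 1 and 2. In 23KRA they were also below 0 in 12 of 12, with sums from 363 to 1371 CPM in wild type and from 289 to 1355 CPM in 23KRA. Beside these and the next counts, 49% of all genes tested were above 0 in the deletion and 50.8% in 23KRA. Genes of 1 marker list share libraries and a cell type, so such counts are not of independent genes. The 16 markers of meiotic prophase were above 0 for 12 in the deletion, with control sums of 6078 and 5913 CPM and deleted sums of 6499 and 6007 CPM. In 23KRA they were above 0 for 10, with sums from 3444 to 3887 CPM in wild type and from 3199 to 4317 CPM in 23KRA. The lowest was 23KRA 1 and the highest 23KRA 2, as in the members' summed level. The 12 macrophage markers summed to 79.2 and 63.3 CPM in control 1 and 2, to 134 and 61.3 CPM in deleted 1 and 2, and from 9.59 to 173 CPM in wild type and 19.2 to 50.7 CPM in 23KRA. The 11 Sertoli markers summed to between 288 and 330 CPM in the deletion table, and to between 115 and 158 CPM in 23KRA, where Fshr was at 0 in every library. The 8 Leydig markers had control sums of 25.4 and 21.8 CPM and deleted sums of 17.01 and 17.96 CPM, and included Cyp17a1, one of the 2 genes that passed the test. The part of these cells in the members' values was not tested. In bulk RNA, a difference in the number of cycling cells and a difference in RNA per cell cannot be told apart.

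The 2 tables were made with different kits, SMART-Seq mRNA for the deletion and SMARTer total RNA with removal of ribosomal cDNA for 23KRA, and were normalized apart, so levels across them are set side by side only as a description. Their control mice also differed in genotype and injection, Rosa26-CreERT2; Cbx2[Flox/+] with corn oil against Cbx2[+/+] with none. Spermatid markers summed to 4094 and 912 CPM in these controls, as means. The kit and these other differences cannot be told apart. Control CPM of Mki67 was 201 in the deletion table and 2296 in the 23KRA table, a ratio of 11.4. Cenpf read 536 and 2937 CPM (ratio 5.48) and Cenpe, also a long transcript, had a ratio of 3.40. Cdc20, which is short, was lower in the 23KRA table (ratio 0.317). The ratio went with transcript length: with the bases of the main transcript, Spearman's rho was 0.67 and Pearson's r of the logs 0.71 over the 35 members, and 0.49 and 0.44 over all 13164 protein-coding genes tested in both tables. These are correlations across genes, which share libraries and are not independent. Of the 12 members of 4000 bases or more the median ratio was 1.78 and 3 were below 1, Cdk1, Mad2l1 and Ect2. It was 0.962 in the 15 members of 2000 to 3999 bases, and 0.487 in the 8 under 2000 bases, all 8 below 1. Among all 35 members the ratio was above 1 in 16, beside 36.1% of the 13164 genes, so most genes were below 1. The share of all genes in each length class was not computed.

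Length was first taken as the bases of all exons joined, with classes at 3000 and 5000 bases, and was changed to the main transcript, with classes at 2000 and 4000 bases, after the values were seen. With the joined exons rho was 0.61 and r 0.69 over the members, and 0.49 and 0.44 over all genes. The medians were then 2.93 in 6 members of 5000 bases or more (1 below 1), 1.18 in 17 of 3000 to 4999 bases (8 below 1) and 0.569 in 12 under 3000 bases (10 below 1). For these classes too the shares of all genes were not computed.

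**Figure D4:**
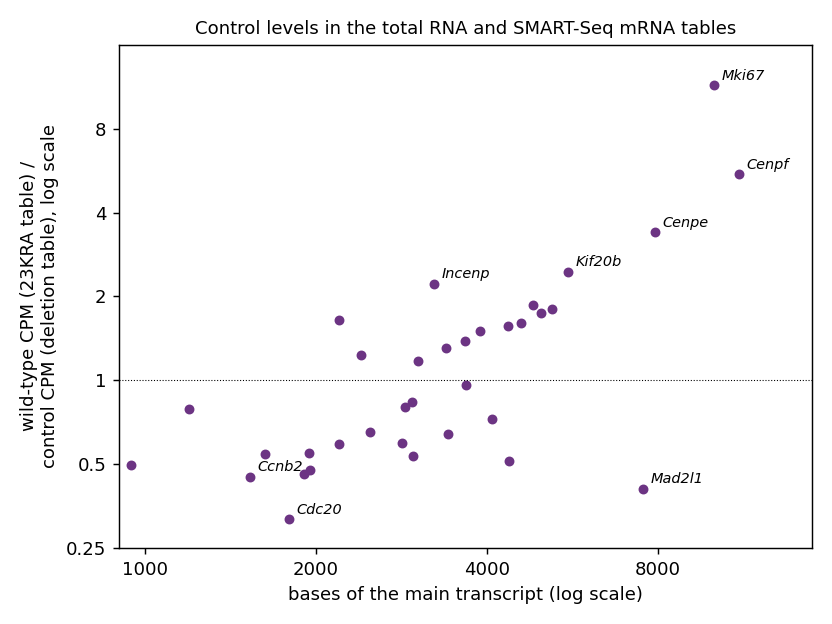
Ratio of mean wild-type CPM in the 23KRA table to mean control CPM in the deletion table (y axis, log scale) against bases of the main transcript (x axis, log scale) for the 35 members. Mki67 is at 11.4 and Cdc20 at 0.317, and Mad2l1 lies below 1 although its annotated transcript is long.

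Per kilobase of the main transcript, control levels in the deletion table were highest for Spc25 (197 ± 16.7 CPM per kb), Birc5 (152 ± 1.31) and Top2a (138 ± 8.49), and lowest for Kif4 (18.8 ± 1.33; all mean ± SD, n = 2). For these 3 neighbours in the order, the ranges of mean ± SD did not meet. In the 23KRA table wild-type levels were highest for Cenpf (264 ± 18.2 CPM per kb), Top2a (249.8 ± 14.2) and Mki67 (228 ± 9.04), with ranges of mean ± SD that met between neighbours, and lowest for Mad2l1 (8.22 ± 1.67; n = 5). The order of the members by level per kilobase differed between the tables (rho = 0.37 across the 35 genes). Both orders depend on the annotated length. Birc5 has 947 bases in its main transcript and 3402 in its joined exons, and Mad2l1 has 7557 and 8032. Which transcripts were expressed was not tested.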

How the data were processed

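Bulk RNA-seq of 14 libraries in 4 groups was analysed from 2 tables of raw counts per gene that the authors deposited, one per experiment. Per the submitters' processing notes the authors used STAR 2.5.3 on mm10, featureCounts from Subread 1.5.0, Trim Galore 0.4.3 and SAMtools 1.4.1. No source used here gives the annotation, strand setting or treatment of multimapping reads, so antisense and overlapping genes may share reads. Per the labels' protocols the deletion libraries used SMART-Seq mRNA and the 23KRA libraries SMARTer Stranded Total RNA-Seq v2.

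Each table was fitted alone with edgeR 4.0.16 (R 4.3.3): filterByExpr, TMM scaling, quasi-likelihood F test, Benjamini-Hochberg over all genes tested, threshold 0.05. Levels are CPM with TMM library sizes. The SE is the log2 fold change divided by the square root of F. The code was tested on counts simulated with known changes. Alternatives were DESeq2 1.42.0, limma-voom 3.58.1, other scalings and filters, the replicate number as a block, and leaving out libraries. Positions and transcript lengths come from GENCODE vM21 (GRCm38). The main transcript is the longest of those at a gene's best APPRIS level, the annotation's ranking of principal forms. No column was left unmapped.

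The members and lists were chosen with earlier results of these data known. Every member is named; values in every library are given for the most abundant member of each role, for members with an adjusted or unadjusted p under 0.05, and for the 3 highest and 3 lowest log2 fold changes. Transcript length and its classes, promoter letters and partner ratios were chosen after values were seen.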

Additional observations from a re-analysis of the deposited data

Results flagged for a closer look

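In the 23KRA experiment 72 groups of 5 libraries were examined (35 members and their sum, in 2 groups) for a library whose gap to its nearest neighbour exceeded 0.71 of the group's range. Chance flags about 1 in 20 groups, and 4 were found. Incenp, the passenger complex scaffold, read 392 CPM in wild type 1, against 280.3 to 311 CPM in the other 4. Ccnb1 read 164 CPM in 23KRA 4, against 135 to 142 CPM in the others. Tpx2 read 311 CPM in that same library, the lowest of its group, against 354 to 368 CPM. Ect2 read 213 CPM in 23KRA 2, against 157 to 171 CPM. The 2 groups of 2 libraries in the deletion experiment are too small for this comparison.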

How the results depend on the processing

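The member medians kept their sign under every other scaling, filter and tool in both experiments. In the deletion, genes called over all genes went from 2 to 8 with no filter on low counts, to 1 with a filter at 5 CPM, to 1 with DESeq2 and to 1 with limma-voom. They ranged from 2 to 73 when single libraries were left out (11 without control 1, 3 without control 2 and 73 without deleted 2). Where that left 1 library in a group, it was assumed to vary like the others. Members called were 0 to 1 when single libraries were left out; the 1 was Bub1 without control 1 (log2 fold change 0.66, adjusted p = 0.0309, edgeR quasi-likelihood test, against 0.149 to 1.00 as the smallest of any member without 1 of the other libraries). The log2 fold change of Cdc20 ran from -0.089 to 0.0082 when single libraries were left out. Member medians ran from 0.020 to 0.147 in the deletion and from -0.014 to 0.031 in 23KRA, where the sign turned without wild type 5, 23KRA 2 or 23KRA 3. The summed log2 ratio ran from 0.030 to 0.172 in the deletion (0.094 with all libraries). In 23KRA, where it was 0.0021, it ran from -0.033 to 0.025 over all alternatives that give it. The cause of these changes was not tested.

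With the replicate number as a block, 62 genes were called in the deletion and 2 in 23KRA, and 1 member, Bub1, in the deletion (log2 fold change 0.38, adjusted p = 0.00283). With 2 libraries a group, the deletion gives a single correlation by construction, 0.16 for same-numbered and -0.16 for crossed libraries. Deviations of same-numbered libraries correlated at 0.03, 0.19, -0.01, 0.09 and 0.22 in 23KRA, where not every library correlated best with its own number. The labels do not say that a number marks a shared litter or day, so the samples share only a number and the pairing is not taken from it. Cdc25c, the least abundant member, was the only one whose 95% interval passed 1.5-fold in 23KRA.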

Other observations

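Ratios of partners within a library cancel its overall level, and were chosen after the members' values were seen, so they are given with no test. Per base of transcript, Aurka over Aurkb was 1.08 ± 0.0993 in wild type (0.942 to 1.19 over 5 libraries) and 1.38 ± 0.202 in 23KRA (1.06 to 1.57), and 1.11 ± 0.0882 and 1.12 ± 0.0759 in the deletion controls and deleted libraries (n = 2). Spc25 over Nuf2, both of the NDC80 complex, was 2.71 ± 0.318 in wild type (2.25 to 3.11) and 2.18 ± 0.140 in 23KRA (2.04 to 2.39), and 4.17 ± 0.0878 and 3.98 ± 0.204 in the deletion. Ccna2 over Ccnb1 was 0.967 ± 0.0619 in the deletion controls and 0.815 ± 0.0776 in deleted libraries, which did not overlap, and 0.794 ± 0.0909 and 0.864 ± 0.0499 in wild type and 23KRA. Of 12 such ratios computed in each experiment, these 3 were picked for their size of difference. In the deletion, Ccnb1 over Ccnb2, Ndc80 over Nuf2 and Kif20a over Kif20b also had groups that did not overlap. The lack of overlap for Ccna2 over Ccnb1 is therefore not particular to that ratio. With 2 libraries a group, 15.6% of all single genes had both deleted libraries above both controls, and 17.5% had both below. No such share was computed for ratios of other gene pairs, so the lack of overlap shows nothing particular to these pairs.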
